A study of Homo sapiens with 6 samples.

Results

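LRP2 and 8 further receptors of the LDL receptor family and its LRP-named relatives (VLDLR, LRP1, LRP1B, LRP5, LRP6, LRP8, LRP10 and LRP12) were followed in HGC-27 gastric cancer cells with and without knockdown of ACAT2. These 9 genes were taken by name from a table of 58735 genes, because LRP2 was far lower in shACAT2 than in shNC cells while other lipoprotein and Wnt receptors did not follow it. Their shACAT2 and shNC values are therefore given as a description, without a test. A group mean of 1 FPKM was asked of every gene tested, which 13832 genes and 8 of the 9 receptors reached in shNC or shACAT2 cells, and LRP1B did not. HGC-27 is an established line of undifferentiated human gastric carcinoma. The 3 shNC libraries came from cells given the plasmid pSIH-H1-Puro-shNC and the 3 shACAT2 libraries from cells given pSIH-H1-Puro-shACAT2, which encodes a short hairpin RNA against ACAT2, and their genotypes are given as WT and ACAT2 knockdown. Transfection took 24 h in both groups and puromycin selection 7 days, so each is a selected population. The labels do not name the hairpin, so an effect of ACAT2 and an effect of that hairpin cannot be told apart. FPKM counts fragments relative to the summed exon length of the gene and to the size of the library, so levels set side by side between genes depend on that length.

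Receptors of this family bind ligands outside the cell through cysteine-rich repeats, and the large endocytic members carry lipoproteins, proteases, vitamin carriers and hormones into clathrin-coated vesicles. LRP2, also called megalin, is best known from the apical surface of absorptive epithelia such as the proximal tubule of the kidney, where it works with cubilin. VLDLR and LRP8 are the receptors of the signalling protein Reelin as well as of lipoproteins, whereas LRP5 and LRP6 are coreceptors that pass Wnt signals from Frizzled receptors to beta-catenin.

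LRP2 (ENSG00000081479) lies on the minus strand of chromosome 2 of GRCh38 from 169127109 to 169362685, and its longest coding transcript has 79 exons and 15808 bases. Its exons share no base with another annotated gene. VLDLR lies on chromosome 9 from 2621834 to 2660053, and 738 bases (7.90%) of its exons are shared with the antisense gene VLDLR-AS1, which stayed between 0.447 and 0.757 FPKM. LRP10 lies on chromosome 14 from 22871613 to 22881580 and shares no exonic base. LRP5 lies on chromosome 11 from 68312609 to 68449275, again without shared exons, and LRP6 on chromosome 12 from 12116025 to 12267012, where 4 genes overlap its span but none of its exons. LRP1, on chromosome 12 from 57128493 to 57213351, shares 59 exonic bases with STAT6 and 112 with LRP1-AS on the opposite strand. LRP8, on chromosome 1 from 53242364 to 53328070, shares 346, 249 and 467 exonic bases with the antisense genes AL606760.1, AL355483.2 and AL355483.4. LRP1B, on chromosome 2 from 140231423 to 142131701, shares 349 bases with AC078882.1 and 99 with RF02271. Whether fragments were counted by strand is not given in the sources used here, so reads of such overlaps cannot be assigned.

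Bases upstream of the genes are shown for the receptor with the lowest and the pair with the highest ratio of shACAT2 to shNC level. They were read from RefSeq on GRCh38.p14, where 6 of the 9 receptors had an entry, run 5′ to 3′ on the strand of the gene, and have each CG dinucleotide, the site of DNA methylation, in capitals. The LRP2 sequence covers chr2:169362686-169362784 on the minus strand, the VLDLR sequence chr9:2621537-2621786 and the LRP10 sequence chr14:22871490-22871612, both on the plus strand. The LRP2 and LRP10 stretches stop at the edge of the gene span given above, short of the RefSeq start. That of VLDLR runs up to the RefSeq start, so the stretches are not the same part of each promoter.
LRP2: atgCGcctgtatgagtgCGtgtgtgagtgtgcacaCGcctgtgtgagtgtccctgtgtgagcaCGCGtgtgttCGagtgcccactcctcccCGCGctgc
VLDLR: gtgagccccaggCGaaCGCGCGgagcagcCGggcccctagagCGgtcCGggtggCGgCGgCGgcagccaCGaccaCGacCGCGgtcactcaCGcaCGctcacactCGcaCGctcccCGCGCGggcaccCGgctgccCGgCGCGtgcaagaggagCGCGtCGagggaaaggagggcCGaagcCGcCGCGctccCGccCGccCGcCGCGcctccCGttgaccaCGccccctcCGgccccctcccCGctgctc
LRP10: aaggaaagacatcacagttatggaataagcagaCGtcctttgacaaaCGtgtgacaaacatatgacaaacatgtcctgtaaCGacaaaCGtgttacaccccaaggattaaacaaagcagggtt
The stretches held 8 CG in 99 bases for LRP2, 41 in 250 for VLDLR and 4 in 123 for LRP10, which cannot be compared directly because they cover unlike parts. Over the full windows of 300 bases (250 before and 50 after the start), LRP2 held 23 CG, VLDLR 49 and LRP10 16, against a median of 14 over 35116 promoters. At least as many CG as in LRP2 were found in 35.8% of all promoters, and at least as many as in VLDLR in 1.60%. On both strands of these windows, the GC box GGGCGG was found in all 6 receptors with an entry, and in 45.0% of all promoters. The sterol regulatory element TCACNCCAC (1.13% of all promoters), the TEAD site GGAATG (14.0%), the E-box CACGTG (7.26%) and the TATA box TATAAA (11.5%) were found in none of the 6. The TCF/LEF core CTTTGA (12.9%) and the CCAAT box CCAAT (34.6%) occurred in LRP10 alone among them, and no motif contains another. DNA methylation was not measured here.

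The libraries held 14086416 to 16067486 fragments on genes. ACAT2 itself, the acetyl-CoA acetyltransferase targeted by the hairpin, averaged 12.9 ± 1.25 FPKM in the control and 5.90 ± 0.388 FPKM in the knockdown libraries (SD, n = 3 each) and fell by 1.01 on the log2 scale (limma adjusted p = 0.0059, or 0.0512 when shNC-3 was left out). The library shACAT2-3 stood apart, with 7477 genes detected in it alone against 416 to 657 in the others. A close pair was formed by shNC-2 and shNC-3 (chi-square per gene of 1.65 against 12.5 to 48.5 between other replicates), and whether the libraries come from separate cultures was not tested, so n counts libraries. Of a list of 10 epithelial and gastric markers and VIM, which encodes the mesenchymal filament vimentin, VIM alone reached a mean of 1 FPKM, at 246 to 292 FPKM in shNC and 340 to 461 FPKM in shACAT2 libraries. EPCAM, KRT18, KRT19, MUC5AC and TFF1 stayed under 0.3 FPKM, so the labelled gastric origin is not visible in these markers. Among markers of other cells, the summed level of 10 blood, stroma and vessel genes was 99.2 to 103 FPKM in shNC and 176 to 196 FPKM in shACAT2 libraries, carried by COL1A1, DCN and LUM, while PTPRC, PECAM1 and VWF stayed under 0.3 FPKM. The 8 kidney tubule markers summed to 3.00 to 3.16 and 2.65 to 3.38 FPKM, with SLC5A2 and SLC5A12 alone at a mean of 1 FPKM, and the 8 neural markers summed to 2.97 to 3.65 and 2.98 to 4.27 FPKM. The part of these markers in the results below was not tested, and in bulk RNA a change in the make-up of a population and a change of level per cell cannot be told apart.

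LRP2 was the receptor with the largest difference. In order of library number, it measured 2.05, 2.27 and 2.25 FPKM in shNC and 0.267, 0.389 and 0.471 FPKM in shACAT2 libraries. Every shACAT2 library lay far below every shNC library, and the 3 shNC values were close together. The means were 2.19 ± 0.124 and 0.376 ± 0.103 FPKM (SD, n = 3 each), so that 17.2% of the shNC level was left, a 5.82-fold lower mean. On the log2(FPKM + 1) scale, which understates the change of low genes, the difference was −1.21 (standard error 0.13), and the log2 ratio of the means was −2.54. By the difference on the log2(FPKM + 1) scale, LRP2 ranked 30 from the most negative of the 13832 genes tested. The values rest on 509 to 631 fragments in shNC libraries and on 66, 105 and 115 fragments in shACAT2 libraries. For the lowest library, shACAT2-1, the exact 95% Poisson interval was 0.207 to 0.340 FPKM, which covers counting error only. In shACAT2-3, autosomal genes silent in the other 5 libraries had a pooled level of 0.0519 FPKM, against 0.0033 to 0.0047 FPKM for the same measure in the others. The LRP2 value of 0.471 FPKM in that library was the highest of its group, and without it the log2 difference was −1.26.

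**Figure D1:**
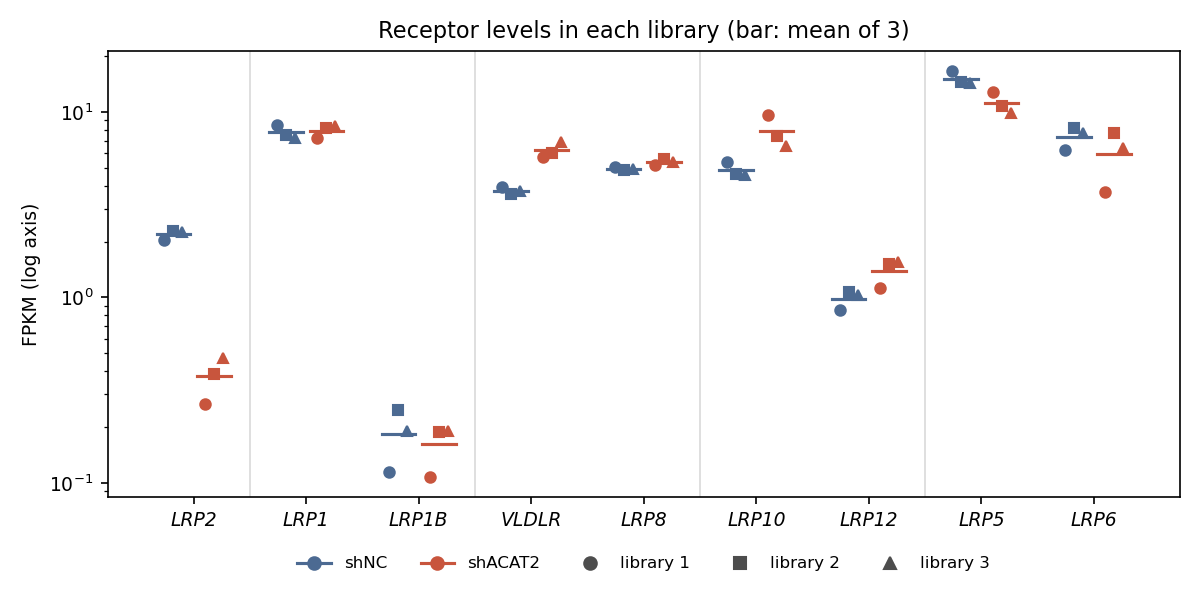
FPKM of the 9 receptors (logarithmic vertical axis) in the 3 shNC and 3 shACAT2 libraries, with a bar at each group mean and marker shape for the library number. LRP2 lay at 2.05 to 2.27 FPKM in shNC and 0.267 to 0.471 FPKM in shACAT2 libraries, while LRP1, LRP1B and LRP6 overlapped between the groups.

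The other large endocytic receptors showed no such difference. LRP1, a receptor for proteases, their inhibitors and remnant lipoproteins, measured 8.48, 7.54 and 7.26 FPKM in shNC and 7.24, 8.21 and 8.36 FPKM in shACAT2 libraries. The groups overlapped, with means of 7.76 ± 0.641 and 7.94 ± 0.607 FPKM (SD, n = 3 each) and a log2 difference of 0.03 (standard error 0.10), whose sign turned when libraries were scaled to their totals. LRP1B, a close relative of LRP1, was low but detected in every library, with 0.115, 0.246 and 0.191 FPKM in shNC and 0.108, 0.187 and 0.192 FPKM in shACAT2 libraries. Its 28 to 68 fragments per library do not allow a small difference to be seen.

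The Reelin and lipoprotein receptors VLDLR and LRP8 did not follow LRP2. VLDLR, which takes up triglyceride-rich lipoproteins, measured 3.96, 3.63 and 3.73 FPKM in shNC and 5.72, 6.02 and 6.86 FPKM in shACAT2 libraries. All 3 shACAT2 values were above all shNC values, and the means of 3.77 ± 0.172 and 6.20 ± 0.589 FPKM (SD, n = 3 each) gave a 1.64-fold higher level, with a log2 difference of 0.59 (standard error 0.09). LRP8, expressed mainly in brain and testis, measured 5.03, 4.84 and 4.94 FPKM in shNC and 5.15, 5.56 and 5.40 FPKM in shACAT2 libraries. These groups did not overlap either, but the step was small, 1.09-fold, with a log2 difference of 0.10 (standard error 0.08) that was 0.06 with libraries scaled to their totals.

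LRP10 and LRP12, smaller relatives that sort cargo or bind adaptors inside the cell, were higher in shACAT2 libraries. LRP10 measured 5.35, 4.63 and 4.59 FPKM in shNC and 9.58, 7.44 and 6.56 FPKM in shACAT2 libraries. The groups did not overlap, and the shACAT2 libraries spread widely, with means of 4.86 ± 0.425 and 7.86 ± 1.55 FPKM (SD, n = 3 each), a 1.62-fold higher level and a log2 difference of 0.58 (standard error 0.14). LRP12 measured 0.855, 1.07 and 1.03 FPKM in shNC and 1.13, 1.51 and 1.55 FPKM in shACAT2 libraries. These values also did not overlap, but the lowest shACAT2 library stood close to the highest shNC library, and the mean was 1.41-fold higher with a log2 difference of 0.27 (standard error 0.13).

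Of the Wnt coreceptors, LRP5 was lower in shACAT2 libraries without overlap, by much less than LRP2, and LRP6 overlapped between the groups. LRP5 measured 16.6, 14.5 and 14.3 FPKM in shNC and 12.8, 10.8 and 9.85 FPKM in shACAT2 libraries. The groups did not overlap, and 73.5% of the shNC mean was left, from 15.1 ± 1.28 to 11.1 ± 1.49 FPKM (SD, n = 3 each), with a log2 difference of −0.42 (standard error 0.12). LRP6 measured 6.25, 8.16 and 7.69 FPKM in shNC and 3.70, 7.68 and 6.40 FPKM in shACAT2 libraries. Its groups overlapped, although each shACAT2 library lay below the shNC library of the same number, and the log2 difference of −0.31 (standard error 0.23) shrank to −0.06 without shACAT2-1. In shACAT2-1 and shNC-1, levels moved with the GC content of the transcripts. The median log2 difference from the other two libraries of the group was −0.22 in the third of genes lowest in GC and 0.36 in the highest for shACAT2-1, and −0.17 and 0.18 for shNC-1. LRP6, with a GC content of 40.2%, differed in shACAT2-1 by −0.77, LRP10 (57.1%) by 0.41 and LRP5 (62.8%) by 0.28, but LRP1, at 60.1%, by −0.17, and the part of GC content in these values was not tested.

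Of the 8 receptors tested, 4 lay higher and 2 lower in shACAT2 libraries without overlap, and 2 overlapped. Over all 13832 genes tested, 30.7% did not overlap between the groups, 16.2% being higher and 14.5% lower. The receptors were chosen on this contrast, so nothing is read from their counts. Their median log2 difference was 0.06, and that of all genes tested was 0.02.

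**Figure D2:**
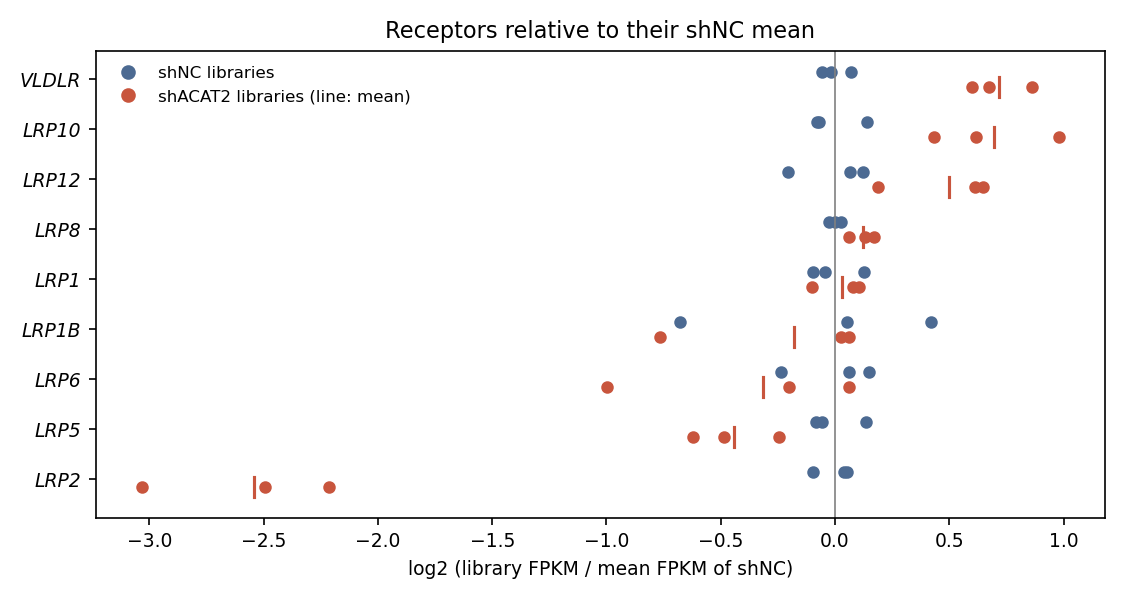
Log2 of each library's FPKM over the shNC mean of the same gene, with shNC libraries in blue, shACAT2 libraries in red and a line at the log2 of the shACAT2 mean over the shNC mean. The 3 LRP2 values stand apart at the left around the mean of −2.54, VLDLR and LRP10 lie at the right, at 0.72 and 0.69, and LRP6 is drawn out by shACAT2-1.

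Set side by side per summed exon length, the receptors formed different orders of level in the groups. In shNC libraries LRP5 was highest, followed by LRP1 and LRP6, whose libraries overlapped, then LRP8 and LRP10, which overlapped too, and then VLDLR, LRP2, LRP12 and LRP1B, each below the one before it in every library. LRP2 thus stood at position 7 of 9. In shACAT2 libraries LRP5 was again highest, but the neighbours LRP1, LRP10, VLDLR, LRP6 and LRP8 could not be separated from one to the next. LRP12 came below them and LRP2 below LRP12, at position 8, still above LRP1B in every library. The log2 ratio of LRP2 to LRP12 level was 1.26, 1.08 and 1.12 in shNC and −2.07, −1.96 and −1.71 in shACAT2 libraries, so their order by FPKM turned in all 3. The summed exons of LRP12 hold 9777 bases and its longest coding transcript 4112, against 16260 and 15808 for LRP2. By transcript length their order in shNC libraries could differ, which was not tested. The order of levels and the shares of the family rest on these lengths, while the shift of a ratio between the groups does not.

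The summed level of the 9 receptors was 47.2 ± 1.39 FPKM in shNC and 46.4 ± 1.24 FPKM in shACAT2 libraries (SD, n = 3 each), but its make-up differed. The share of LRP2 was 4.20%, 4.83% and 4.90% of the sum in shNC and 0.586%, 0.813% and 1.03% in shACAT2 libraries. That of the Wnt coreceptors LRP5 and LRP6 together was 47.7% ± 0.715 and 36.8% ± 1.65 (SD, n = 3 each). The share of VLDLR was 7.99% ± 0.226 and 13.4% ± 1.42, and that of LRP10 10.3% ± 0.608 and 17.0% ± 3.52, in shNC and shACAT2 libraries (SD, n = 3 each), neither with an overlap. Taken within each library, where scaling between libraries drops out, the mean log2 ratio of LRP2 to another receptor shifted by between −2.13, against LRP5, and −3.29, against VLDLR. LRP2 therefore lay lower relative to each of the 8 others, including LRP5, which was lower itself.

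Genes that work with these receptors were taken from 10 lists of 148 genes, of which 107 were tested. The lists were chosen with earlier results of these data known, so their shares are a description and not a result about partner genes. At limma adjusted p below 0.05 over all genes, 11 were higher (10.3%) and 1 lower (0.935%) in shACAT2 libraries, against 3.30% higher and 1.81% lower, together 5.10%, of all genes tested. Among the 11, DAB2, SOST and OLR1 had shNC means of 0.806, 0.302 and 0.210 FPKM and passed the filter only through the shACAT2 group. Such genes could be tested only because they were high there, so their calls do not count towards an excess of higher genes. Of the 107, 23.4% were higher and 8.41% lower without overlap between the groups, and their median log2 fold change was 0.12. With the replicate number as a block, 21 were higher (19.6%) and 3 lower (2.80%), against 7.67% higher and 4.81% lower of all genes tested in the same fit. Most of these calls rest on the full set of libraries: of the 12 genes, DKK1 alone kept its call when any shNC library or shACAT2-2 was left out. When shACAT2-3 was left out, 7 of the 12 were kept.

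On the Wnt side lay DKK1, with the largest log2 fold change among the list genes called. Of 28 coreceptor partners tested, 5 were higher and 1 lower (5 and 2 with the replicate block). Of all genes tested, 3.30% were called higher and 1.81% lower (7.67% and 4.81% with the block). DKK1, a secreted antagonist that binds LRP5 and LRP6, measured 8.03, 7.41 and 7.36 FPKM in shNC and 35.3, 28.0 and 32.7 FPKM in shACAT2 libraries. It rose 4.21-fold, or by 1.93 ± 0.11 (SE) on the log2 scale (limma adjusted p = 0.0020), and was called in all 16 alternatives. SOST, which encodes the LRP5 and LRP6 inhibitor sclerostin, measured 0.199, 0.456 and 0.252 FPKM in shNC and 1.89, 1.46 and 2.00 FPKM in shACAT2 libraries. It rose from a low level, with a log2 fold change of 1.10 (limma adjusted p = 0.015). With a shNC mean of 0.302 FPKM, SOST passed the filter only through the shACAT2 group, so its call does not count towards an excess of higher genes. KREMEN1, a receptor of DKK1, fell from 4.87 ± 0.399 to 3.23 ± 0.200 FPKM (SD, n = 3 each; log2 fold change −0.47, limma adjusted p = 0.038). The Frizzled receptors FZD7 and FZD1 rose, with log2 fold changes of 0.72 and 0.56 (limma adjusted p = 0.030 and 0.040), and so did the R-spondin receptor LGR4, by 0.73 (limma adjusted p = 0.039). Of 10 Wnt feedback and target genes, DKK1, which is on both lists, was the only call, while TCF7, APCDD1 and ZNRF3 had log2 fold changes of 0.25, −0.30 and −0.18 (limma adjusted p of 0.16, 0.20 and 0.24).

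On the endocytic side, 2 of 14 genes of the megalin uptake machinery were called higher, against 3.30% of all genes tested. With the replicate block 4 were higher and 1 lower, and that fit called 7.67% of all genes tested higher and 4.81% lower. DAB2, an adaptor that binds the tail of LRP2 and links it to clathrin, rose: it measured 0.821, 0.831 and 0.767 FPKM in shNC and 2.00, 2.01 and 2.81 FPKM in shACAT2 libraries. This was 2.82-fold, or 0.85 ± 0.14 (SE) on the log2 scale (limma adjusted p = 0.022). With a shNC mean of 0.806 FPKM, DAB2 passed the filter only through the shACAT2 group. Its call therefore does not count towards an excess of higher genes in any list. EHD1, which acts in the return of receptors from endosomes to the cell surface, rose from 9.99 ± 0.906 to 19.7 ± 4.74 FPKM (SD, n = 3 each; log2 fold change 0.90, limma adjusted p = 0.034). The clathrin adaptor subunits AP2B1 and AP2M1 had log2 fold changes of −0.50 and 0.50 and did not pass the test (limma adjusted p = 0.057 and 0.11). AP2B1 passed it in 6 of the 16 alternatives, the replicate block among them, and AP2M1 in the block alone (limma adjusted p = 0.043 and 0.026 with the block). Cubilin (CUBN), the partner of LRP2 in the kidney, was at 0.112 to 0.144 FPKM in shNC and 0.0997 to 0.357 FPKM in shACAT2 libraries and was not tested. Among 13 chaperones and adaptors DAB2 was again the only call, and NUMB, GIPC1 and APBB1 had log2 fold changes of −0.24, 0.54 and 0.35 (limma adjusted p from 0.24 to 0.27). Without shACAT2-3 GIPC1 was at 0.80 and was called (limma adjusted p = 0.049), and without shACAT2-1 the values were −0.15, 0.30 and 0.20.

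Ligands of the family gave no call. None of the 7 ligand genes tested passed limma's adjusted p, while 5 had an unadjusted p below 0.05, limma-voom called 1 and the replicate block 4. Over all 13832 genes tested, 3253 had an unadjusted p below 0.05 and limma-voom called 1035, so such counts are not read as a result about a list. All 7 ligand genes had a log2 fold change above 0, also under the other scalings, with a median of 0.38. Of all 13832 genes tested, 7234 were above 0 in the main fit, with a median of 0.02, and nothing is read from the direction of 7 genes. The 4 called with the block were CLU (clusterin, 0.57), GRN (progranulin, 0.63), PSAP (prosaposin, 0.37) and THBS1 (thrombospondin 1, 0.30), with limma adjusted p from 0.079 to 0.19 without and from 0.026 to 0.050 with the block. Of 9 genes of Reelin signalling limma called 0, with 3 at an unadjusted p below 0.05 and 1 called by limma-voom. SRC, a kinase that phosphorylates the Reelin adaptor, went from 1.36 ± 0.110 to 0.669 ± 0.039 FPKM (SD, n = 3 each; limma adjusted p = 0.070), FYN had a log2 fold change of −0.34 and NCK2 of 0.33 (limma adjusted p = 0.18 and 0.19), and PIK3R1 of −0.24 (limma adjusted p = 0.60), which turned to 0.02 without shACAT2-1.

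Among 4 further relatives limma and limma-voom called 0, with 0 at an unadjusted p below 0.05, and log2 fold changes were 0.17 for LRP4, 0.23 for LRP3, −0.15 for SORL1 and −0.13 for LDLRAD3. These values hang on single libraries: LRP3 was at 0.01 without shACAT2-1 and 0.42 without shACAT2-3, SORL1 at −0.02 without shACAT2-1, and LDLRAD3 at −0.08 and −0.20 without shACAT2-1 and shACAT2-3. Of 5 other lipoprotein receptors, OLR1, a receptor of oxidised lipoprotein, rose from 0.210 ± 0.068 to 1.22 ± 0.331 FPKM and SCARB2, a lysosomal membrane protein, from 4.21 ± 0.138 to 6.33 ± 0.587 FPKM (SD, n = 3 each; limma adjusted p = 0.038 and 0.034), while SORT1 and SCARB1 had log2 fold changes of 0.09 and 0.13 (limma adjusted p = 0.58 and 0.63). OLR1 passed the filter only through the shACAT2 group, so its call does not count towards an excess of higher genes. Without shACAT2-1 SCARB1 was at 0.0016, and without shACAT2-3 SORT1 was at 0.04. The 10 sheddases and secretases, which cut such receptors at the membrane, gave 0 calls by limma and limma-voom, 1 at an unadjusted p below 0.05 and 1 with the replicate block, ADAM10 (0.41, limma adjusted p = 0.25 without and 0.036 with the block). NCSTN, APH1A and BACE1 had log2 fold changes of 0.27, 0.26 and −0.14, of which APH1A was at 0.08 without shACAT2-1 and 0.44 without shACAT2-3, and BACE1 at −0.06 without shACAT2-3. Of 12 genes of sterol synthesis and its control, SC5D rose 2.05-fold and SQLE 1.41-fold (limma adjusted p = 0.020 and 0.044). With the replicate block 5 were higher, HMGCS1 and IDI1 among them at 0.48 and 0.51 (limma adjusted p = 0.070 and 0.060 without the block). Of all genes tested, 3.30% were called higher, and 7.67% with the block.

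**Figure D3:**
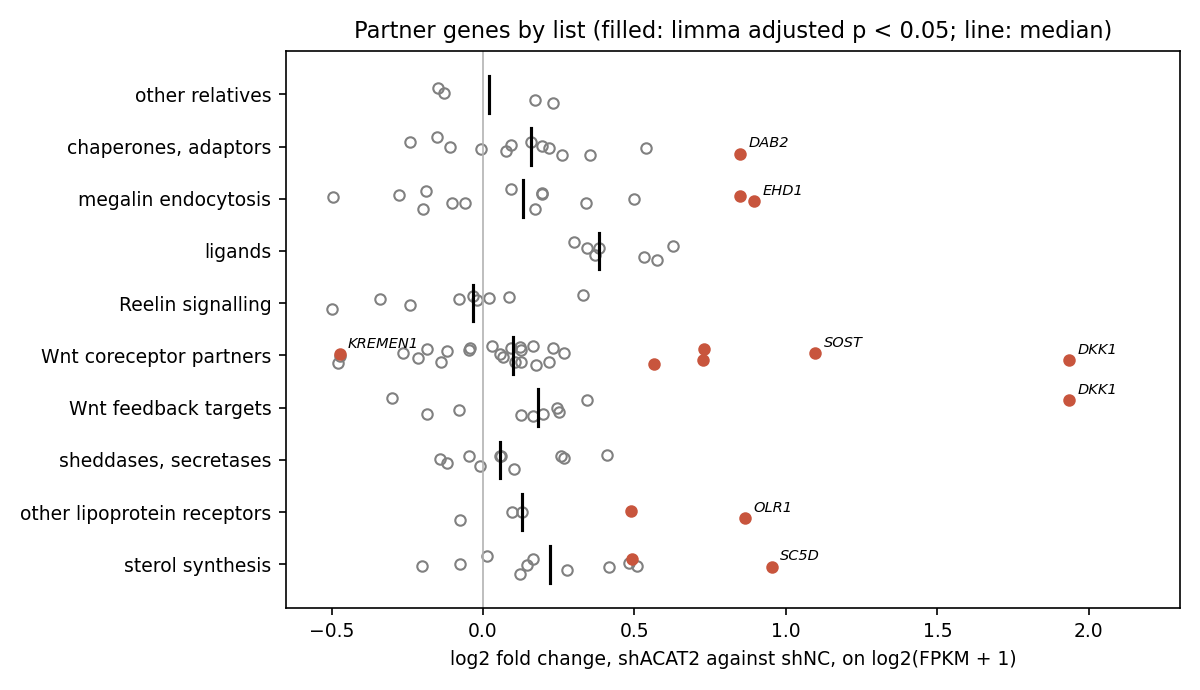
Log2 fold change of shACAT2 against shNC on log2(FPKM + 1) (horizontal axis) for the tested genes of 10 lists of partner genes, with filled points at limma adjusted p below 0.05 and a black line at the median of each list. DKK1, on 2 lists, lies farthest to the right at 1.93, and KREMEN1 at −0.47 is the only filled point left of 0.

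The genes most like LRP2 over the 6 libraries were LRRC3B, SETD7, MIR320C2, BTG3 and RNA5SP108. Likeness was measured as the root mean square difference between log2(FPKM + 1) profiles, each centred on its shNC mean. This scale understates the change of low genes, so a gene at a higher level can match LRP2 with a smaller fall by ratio. Group means went from 2.65 to 0.621 FPKM for LRRC3B, 8.17 to 3.09 for SETD7 and 22.1 to 8.47 for BTG3. Each was a smaller fall by ratio than that of LRP2, from 2.19 to 0.376 FPKM. LRRC3B, a leucine-rich repeat membrane protein, was nearest (0.056), at 2.56, 2.75 and 2.65 FPKM in shNC and 0.591, 0.600 and 0.672 FPKM in shACAT2 libraries. SETD7, a lysine methyltransferase, came next (0.074), at 7.77, 8.60 and 8.12 FPKM and 2.54, 3.49 and 3.23 FPKM, and BTG3, an antiproliferative gene, was at 22.4, 22.5 and 21.4 FPKM and 8.31, 7.49 and 9.62 FPKM (0.11). All 3 had more fragments than the other two nearest profiles, MIR320C2 and RNA5SP108, which rested on 1 to 3 fragments per shNC library and were listed at 0 in every shACAT2 library. The pattern of LRP2 is mainly a step between the groups, so this likeness is a description of 6 libraries.

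None of the genes around LRP2 on chromosome 2 was called. Within 1 Mb on each side lay 34 genes, of which 13 were tested and 0 were called by limma or limma-voom, with 2 at an unadjusted p below 0.05 and a median log2 fold change of −0.05. Over all 13832 genes tested, 3253 had an unadjusted p below 0.05. The nearest tested gene was BBS5, a subunit of a ciliary transport complex, 116 kb away, at 1.52, 1.42 and 1.37 FPKM in shNC and 1.86, 1.73 and 1.68 FPKM in shACAT2 libraries (log2 fold change 0.18). On the same side METTL5 was at 0.31 (limma adjusted p = 0.13). On the other side SPC25, a kinetochore gene, had the lowest value, −0.32 (limma adjusted p = 0.12). The highest value, 0.68, belonged to RNU6-766P, which was detected only in shACAT2-3.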

How the data were processed

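RNA of HGC-27 cells was sequenced in 3 shNC and 3 shACAT2 libraries. The authors deposited FPKM values for 58735 genes, with gene lengths and coordinates that equal GENCODE release 29 on hg38. According to the submitters' processing notes, HISAT2 2.0.5, featureCounts 1.5.0-p3 and DESeq2 1.20.0 were among the tools, and the strand setting is not given in the sources used here. Fragments were read back from FPKM and length, and 100% came out whole within 0.02. Differences were computed with limma 3.58.1 (with a trend) in R 4.3.3 on log2(FPKM + 1), for the 13832 genes whose shNC or shACAT2 mean reached 1 FPKM, with Benjamini-Hochberg adjustment. Other steps used Python 3.11.15 with pandas 2.3.3. The fit was tested on simulated data of 13832 genes, where it called 100% of 200 genes given a log2 change of 1.5, and falsely called 22 others. The changed genes were drawn from those with many fragments, and the simulation held no GC or library effect. It therefore does not cover genes with few fragments or the differences between these libraries.

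The receptors and the gene lists were chosen with earlier results of these data known. Genes named are the 9 receptors, ACAT2, in each list the genes at adjusted p below 0.05 and at least the 4 with the smallest p, the 5 genes nearest to LRP2 in profile, the genes overlapping a receptor and the markers, while the genes around LRP2 were chosen after their values were seen. Deviations from the group means correlated between same-numbered samples at 0.445, 0.126 and 0.171. Beyond number 1 a pairing by number is not clear, since shNC-2 with shACAT2-3 and shNC-3 with shACAT2-2 gave 0.198 and 0.141. The main fit had no block, and number was a block in an alternative fit only. Adjusted p values are from the main fit unless another is named. The chi-square of shNC-2 and shNC-3 was above sampling noise, so both were kept. Alternatives were 4 scalings between libraries, a pseudocount of 0.1, no filter, a filter at 10 fragments, limma-voom, the replicate block, each library left out, and shNC-2 with shNC-3 merged into 1 sample by averaging.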

Additional observations from a re-analysis of the deposited data

How the results depend on the processing

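LRP2 was lower in shACAT2 in all 16 alternatives, with log2 differences of −1.07 with upper-quartile scaling, −2.29 with a pseudocount of 0.1 and −2.59 with limma-voom, and from −1.26 to −1.16 with 1 library left out. Its share of the family differed by −4.06 to −3.71 percentage points and its position in the order of levels did not move when 1 library was left out. ACAT2 was at −0.79 (limma adjusted p = 0.45) with upper-quartile scaling, and from −1.07 to −0.94 with 1 library left out, where it lost its call without shNC-3 (−1.01). The 706 genes called became 84 with upper-quartile scaling, 209 with no filter, 1727 with the replicate block, 83 with the average of the close shNC pair (shNC-2, shNC-3) and 63 to 862 over the fits that leave out 1 library. The 12 list genes called became 1, 2, 24 and 1 in the same order, and 1 to 12 with 1 library left out. An unadjusted p below 0.05 was reached by 30 of the 107 list genes tested, against 3253 of all 13832 genes tested. The limma-voom fit called 18 of the 107 and 1035 of the 13832. Of the calls 64.6% were higher in shACAT2, against 90.5% with upper-quartile scaling, 54.8% with library-total scaling and 54.4% with upper-quartile scaling over the genes tested, which was chosen after seeing the data. Upper-quartile scaling over all genes above 0 moved the median of all genes to 0.22, since its factor for shACAT2-3 was 0.572 and above 1 in the others, and put LRP5 at −0.20, LRP6 at −0.10, LRP1 at 0.24, LRP8 at 0.31 and LRP12 at 0.42.

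Signs turned for LRP1, to −0.0229 with upper-quartile scaling over the genes tested, −0.0175 with library-total scaling and −0.00063 with the average, and over the fits without 1 library it ran from −0.0122 to 0.0872, being below 0 without shNC-3 or shACAT2-3. With upper-quartile scaling they turned for LDLRAD3 (0.0861), SORL1 (0.0567), ZNRF3 (0.0316) and BACE1 (0.0471), and without shACAT2-1 for PIK3R1, which ran from −0.419 to 0.0173 over the fits without 1 library. For ACAT2 and the list genes named, the replicate block changed no call beyond those given with their values above. Calls with the block were not examined for the markers, the nearest profiles and the genes around LRP2. Depth limits LRP1B, at 28 to 68 fragments, and LRP2 in shACAT2 libraries, at 66 to 115.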
